A study of Mus musculus with 6 samples.

Results

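The comparison described here is Ezh2 KO against wild type in unpolarized mouse CD4 T cells. It rests on 2 of the 6 arrays of the study, those labelled as unpolarized cells of each genotype, with 1 array per genotype. All 11572 genes with enough signal, of 18193 genes named on the array, were compared between these 2 arrays. Both cultures began as naive (CD44 low, CD62L high) CD4 T cells sorted from the spleens of C57BL/6 mice. They were activated for 2 days with anti-TCRb (10 µg/ml), anti-CD28 (1 µg/ml) and IL-2 (15 ng/ml), and were then kept for 3 days without the activating antibodies. The unpolarized cultures received blocking antibodies to both IL-4 and interferon gamma. The other 4 arrays came from Th1 cultures (1 ng/ml IL-12 with antibody to IL-4) and Th2 cultures (10 ng/ml IL-4 with antibody to interferon gamma) of the same 2 genotypes, and serve here to show how far the unpolarized pair resembled pairs of arrays it shares no culture with. Wild type is the only control used here. The labels do not say which exons of Ezh2 were deleted, which promoter drove a Cre recombinase, or whether the cultures came from separate mice.

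Ezh2 is the methyltransferase of Polycomb repressive complex 2 (PRC2), which marks histone H3 with the H3K27me3 modification at genes that a cell keeps silent. Ezh1 is its paralog, and the PRC1 complex binds that mark or acts beside it. In helper T cells, PRC2 is known to sit on genes of fates that a cell has not chosen, among them those for cytokines and their master transcription factors. The unpolarized pair asks how the genotypes differed when neither IL-12 nor IL-4 was supplied.

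Intensities were the authors' linear values, scaled to a common mean on every array. A log2 difference is Ezh2 KO minus wild type, after values below 11.33 (the 20th percentile of all values) were raised to it. An intensity under 64.43, the median of all values, is called dim below. A ratio against a value at the floor is a lower bound and is written "at least". Because 1 array stands for each genotype, "higher" and "lower" describe these 2 arrays and carry no test. Tests come from limma fits across all genes. The first fits genotype over the 3 pairs of arrays with culture as a block, and "rose" and "fell" below mean an adjusted p under 0.05 in it. The second uses the Th1 and Th2 arrays alone, and the third asks whether the unpolarized difference departs from the polarized ones. The first fit needs all 3 pairs: with any 1 pair left out 0 genes pass. That fit includes the unpolarized pair, so for genes picked by their unpolarized difference it is no independent support. A gene that is dim in wild type was measured only if another array was bright, so counts and medians over the measured members of a list are partly fixed by that filter and are given as descriptions. The 6 arrays had median intensities from 61.3 (Ezh2 KO unpolarized) to 69.1 (wild type unpolarized), so this pair held the extremes, and Gapdh probe sets for the 3′ and 5′ ends of the RNA gave ratios of 0.787 to 0.834. In bulk RNA, a change in the share of cells that express a gene and a change in RNA per cell cannot be told apart.

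Ezh2 itself gave an intensity of 7002 in wild type and 4971 in Ezh2 KO unpolarized cells, a log2 difference of -0.49. The Th1 pair read 6553 and 4876, and the Th2 pair 7677 and 4946. The 3 wild type arrays thus all lay above the 3 Ezh2 KO arrays, and the genotype effect over the 3 cultures was -0.52 ± 0.09 (SE, limma adjusted p = 0.0437). The Ezh2 RNA read by this probe set was reduced and not lost. Whether the probe set lies inside the deleted part is not known from the labels. The other PRC2 genes differed little in the unpolarized pair. None of the 11 measured subunits and partners reached 2-fold, and their differences ran from -0.49 for Ezh2 to 0.49 for Jarid2, an accessory subunit that helps recruit the complex. Jarid2 rose over the 3 cultures (0.59 ± 0.11, SE, limma adjusted p = 0.0481). Suz12 and Eed, the core partners of Ezh2, had differences of -0.18 and -0.14, and the paralog Ezh1 one of 0.30.

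Across all measured genes, 874 were at least 2-fold higher in Ezh2 KO unpolarized cells (7.55% of those compared) and 671 were at least 2-fold lower (5.8%). At 4-fold the counts were 295 higher (2.55%) and 168 lower (1.45%), and at 10-fold 73 higher (0.631%) and 11 lower (0.0951%). The larger the difference, the more often Ezh2 KO was the higher array. By any amount, 44.3% of measured genes were higher and 55.6% lower. These shares over all measured genes are the background for the list counts below. The median gene lay at -0.06 log2. With each array centred on its own median this median moved to 0.11, and higher genes then made up 69.1% of those at 2-fold or more, against 56.6% as deposited. Counts of small differences in either direction therefore depend on how the 2 arrays are scaled. In the Th1 pair 7.28% of genes were 2-fold or more higher and 4.42% lower, and in the Th2 pair 9.61% and 5.98%.

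**Figure D1:**
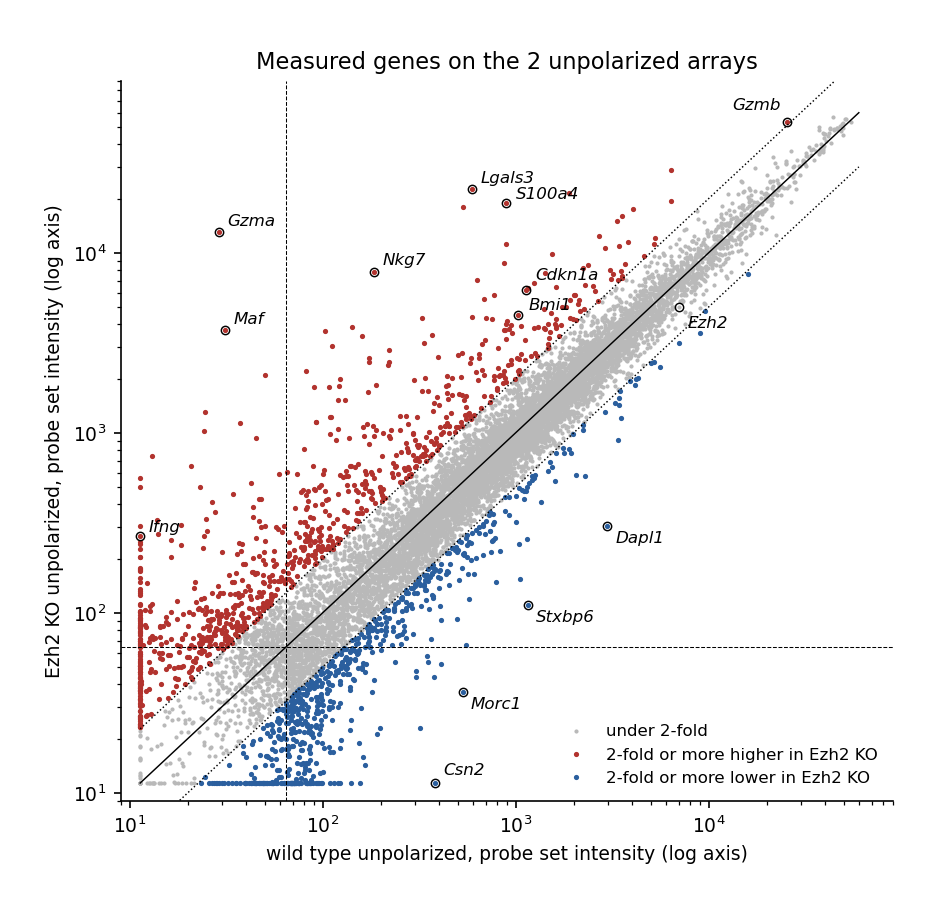
Intensity of each of the 11572 measured genes on the wild type (x) and the Ezh2 KO (y) unpolarized array, both on log axes, with values under 11.33 drawn at 11.33. The solid line marks equal intensity, dotted lines mark 2-fold and dashed lines mark 64.43; the 73 genes at 10-fold or more above the diagonal outnumber the 11 below it.

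The gene with the highest difference of all was Gzma, which encodes granzyme A, a protease of cytolytic granules. Its intensity was 29.1 in wild type cells, which is dim, and 13065 in Ezh2 KO cells, a log2 difference of 8.81. Since the wild type value was dim, the 449-fold ratio is loosely fixed, and against the low-signal limit itself the Ezh2 KO array was still 203-fold higher. The Th1 pair (51.7 and 15534) and the Th2 pair (51.0 and 38608) differed by 8.23 and 9.56. Maf came next, a transcription factor of the AP-1 superfamily known to drive IL-4 and IL-10. It read 31.2 in wild type and 3721 in Ezh2 KO cells, a log2 difference of 6.90, and its Ezh2 KO value was 57.7-fold above the limit. Of its 6 probe sets 5 reached the limit, each with a difference of 4.66 or more. Over the 3 cultures Gzma rose by 8.87 ± 0.29 and Maf by 6.31 ± 0.24 (SE, limma adjusted p = 0.0143 for each).

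The rest of the 15 highest genes came from several functions. Nkg7, a granule membrane protein of cytotoxic lymphocytes, read 185 in wild type and 7856 in Ezh2 KO cells, and granzyme D (Gzmd) was at the floor in wild type and at 501 in Ezh2 KO cells (at least 44.3-fold). Lgals3, which encodes galectin-3, went from 593 to 22593, and the interferon-induced membrane protein gene Ifitm1 from 532 to 17940.0. Fgl2, a secreted immunosuppressive fibrinogen-like protein, went from 102 to 3672. Receptors among the 15 were Cxcr6 (112 and 3037), a chemokine receptor of effector and tissue-resident cells, and the inhibitory receptor Cd200r1 (20.8 and 652). The others, and Cd200r1, were dim in wild type cells, so their folds are given against the low-signal limit. The Ezh2 KO array lay 20.2-fold above it for Upp1, uridine phosphorylase, and Gcnt2, a glycan-branching transferase, read 24.1 and 1028. For Asb2, a substrate adaptor of a ubiquitin ligase, it was 32.4-fold, and for H2-Aa, an MHC class II chain, 17.6-fold. Tmem163, a zinc-transporting membrane protein, was at 747 (11.6-fold), and Igsf5, an adhesion protein of the immunoglobulin superfamily, was at the floor and at 563. All 15 were also at least 4-fold higher in Ezh2 KO cells in the Th1 and in the Th2 pair, which share no array with the ranking. All 15 rose over the 3 cultures (limma adjusted p from 0.0143 to 0.0302), as did 8.35% of all measured genes. That fit includes the pair by which these 15 were ranked, so it is no independent support for them.

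The 15 lowest genes were a different mixture. The lowest was Csn2, the gene for the milk protein beta-casein, which read 383 in wild type and was at the floor in Ezh2 KO cells (at least 33.8-fold lower). Morc1, an ATPase gene known from germ cells, went from 530.5 to 36.3. Stxbp6, a regulator of vesicle fusion, went from 1152 to 109.8, Dapl1 from 2991 to 303, and the cadherin-related gene Cdhr3 from 156 to the floor. These 5 were lower in Ezh2 KO cells in the Th1 and the Th2 pair as well. They fell over the 3 cultures (limma adjusted p from 0.0143 to 0.0256), as did 7.98% of all measured genes. Here too the fit includes the pair that gave the ranking. Dapl1 is known as a gene of naive T cells. The other 10 (Rhbdd3, Inhbb, Gapdhs, H1f10, Rnf208, Lce3c, Unc5c, Sct, Lce3b and Scrt1) did not pass. They were dim in Ezh2 KO cells, and their wild type values lay between 99.3 (Scrt1) and 318 (Rhbdd3). In Rhbdd3 the Th1 and Th2 differences were -0.22 and 0.15, and in Inhbb, a subunit of activin and inhibin, -0.22 and 0.12. The polarized pairs thus did not repeat the low unpolarized values of these 2 genes. Lce3b and Lce3c, genes of the skin's cornified envelope, were lower in all 3 pairs, and Sct, secretin, was lower in Th1 and higher in Th2 cells.

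**Figure D2:**
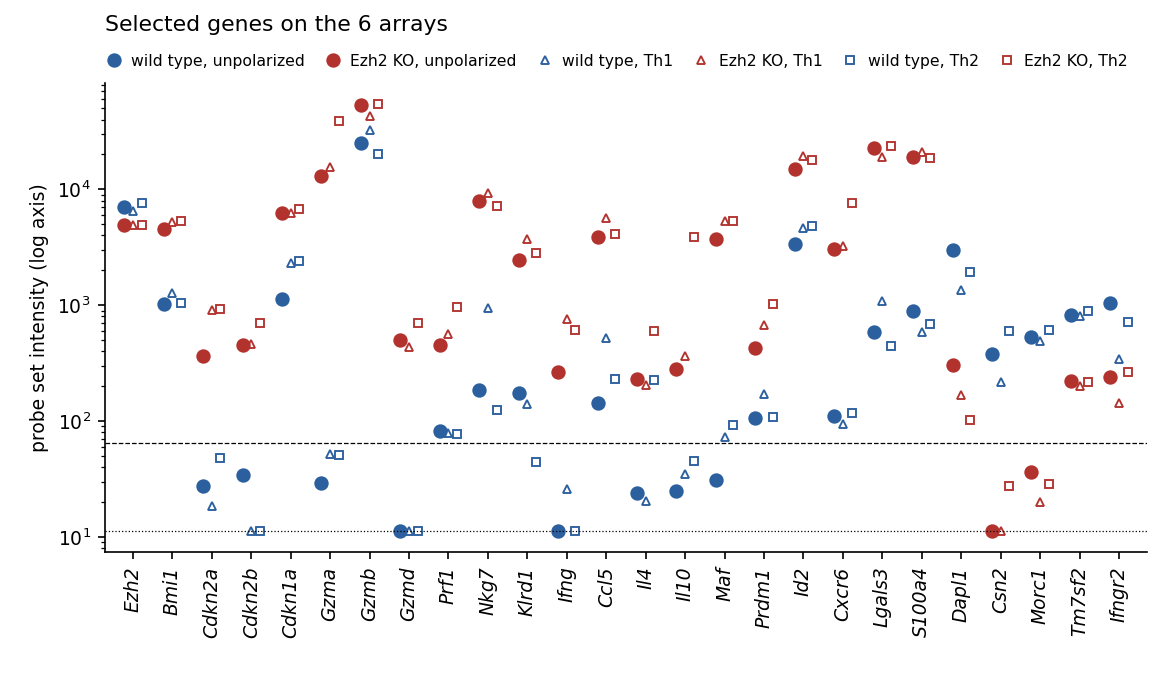
Intensity (log axis) of 26 genes on each of the 6 arrays; filled circles are the unpolarized arrays, open triangles Th1 and open squares Th2, with wild type in blue and Ezh2 KO in red. The dashed line is the low-signal limit of 64.43 and the dotted line the floor of 11.33, at which lower values are drawn; in Gzma, Maf, Lgals3 and S100a4 the 3 Ezh2 KO arrays lie above all wild type arrays, and in Dapl1, Csn2 and Morc1 below them.

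How often the unpolarized differences recurred at 2-fold or more, in cultures they share no array with, varied with their direction, size and signal. Of the 73 genes at 10-fold or more higher, 68 (93.2%) were at 2-fold or more higher in both the Th1 and the Th2 pair, against 5% of all measured genes. At 4-fold or more higher it was 224 of 295 (75.9%). Among genes at 4-fold or more lower, 39 of 168 (23.2%) were 2-fold or more lower in both other pairs, against 1.93% of all. Where both arrays were at or above the signal limit the shares were 267 of 442 higher genes (60.4%) and 80 of 231 lower genes (34.6%). For lower genes that were dim in Ezh2 KO cells but not in wild type cells, 45 of 330 (13.6%) recurred at 2-fold or more. By any amount, 146 of these were lower in both. Across all 11572 genes the unpolarized difference correlated with the Th1 difference at r = 0.61 (Spearman 0.57) and with the Th2 difference at r = 0.65 (Spearman 0.60). Across the 9241 genes above the limit on all 6 arrays, the values were r = 0.81 (Spearman 0.69) and r = 0.84 (Spearman 0.73). These values are across genes, which are not independent replicates, and the arrays share their processing. In the limma fit over the 3 cultures 966 genes rose and 924 fell, with 4479 at an unadjusted p under 0.05. The smallest adjusted p was 0.110 without the unpolarized pair, 0.0803 without the Th1 pair and 0.0808 without the Th2 pair. The fit without the unpolarized pair is the same as the limma fit on the Th1 and Th2 arrays alone. It passed 0 genes after adjustment and 3227 before it (27.9%).

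**Figure D3:**
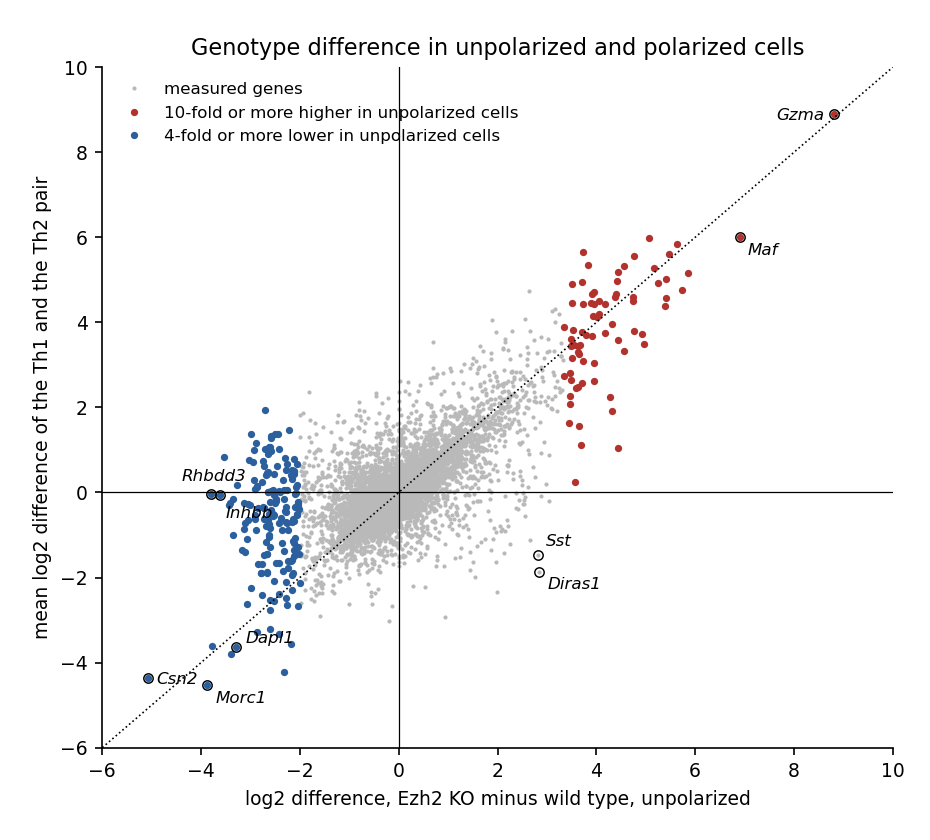
For each measured gene, the log2 difference of the unpolarized pair (x) against the mean of the Th1 and Th2 differences (y); the dotted line marks equality. The 73 genes at 10-fold or more higher (red) lie above 0 on the y axis, while the 168 at 4-fold or more lower (blue) spread on both sides of 0.

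The test of the unpolarized difference against the polarized ones (limma interaction term) passed 0 genes after adjustment, with 634 at an unadjusted p under 0.05 (5.48%) and a smallest adjusted p of 0.739. This test has 1 residual degree of freedom and takes its spread from the gap between the Th1 and Th2 differences. Its result therefore does not show that differences particular to unpolarized cells are absent. The genes with the 5 highest and 5 lowest estimates each had at least 1 dim value in the unpolarized pair. Among them, Diras1 (11.9 in wild type and 85.2 in Ezh2 KO unpolarized cells) and Sst, somatostatin (9.83 and 79.4), were higher in the unpolarized pair and lower in both others. For Tbx21, the Th1 master regulator, the unpolarized minus polarized estimate was 1.27 (limma adjusted p = 0.965).

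The genes of the Th1 programme were mostly higher in Ezh2 KO unpolarized cells although neither genotype was given IL-12. Of 23 measured members, 16 were 2-fold or more higher and 1 was 2-fold or more lower, with a median difference of 1.45 against -0.06 over all measured genes. Ifng, the Th1 cytokine, was at the floor in wild type and at 266 in Ezh2 KO cells (at least 23.5-fold). It rose over the 3 cultures (5.07 ± 0.27, SE, limma adjusted p = 0.0177). Tbx21 read 89.97 and 488. In the Th1 pair its values were 530.4 and 643, so the Ezh2 KO unpolarized level lay close to that of wild type Th1 cells on this probe set, and the effect over the 3 cultures did not pass (adjusted p = 0.108). Eomes, its relative from CD8 and NK cells, read 161 and 1071 and rose over the 3 cultures (adjusted p = 0.0177). Of the IL-12 receptor chains, Il12rb1 was 4.05-fold higher, and Il12rb2 was dim in wild type (23.5) and at 119 in Ezh2 KO cells, 1.85-fold above the limit. The IL-18 receptor gene Il18r1 went from 2032 to 5817. The exception was Ifngr2, the signalling chain of the interferon gamma receptor, at 1043 in wild type and 241 in Ezh2 KO cells (4.33-fold lower), while its partner Ifngr1 read 3084 and 8069.7. The effect on Ifngr2 over the 3 cultures was -1.61 ± 0.21 (SE, limma adjusted p = 0.0318).

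Most measured genes of the Th2 programme were higher in the same cells, in the absence of added IL-4. Of 19 measured members, 10 were 2-fold or more higher and 0 lower, with a median of 1.32. Il4 itself read 24.1 in wild type, which is dim, and 229.7 in Ezh2 KO cells. In wild type Th2 cells it read 227, so the Ezh2 KO unpolarized value lay at the level of the wild type Th2 culture. Il10 was dim in wild type and at 284 in Ezh2 KO cells, 4.41-fold above the limit, and Csf2, the gene for GM-CSF, went from 108 to 1216. Il5 and Il13 were at the floor in wild type and stayed low in Ezh2 KO cells, at 57.4 and 75.2, the former still dim. Of the 6 arrays, that of Ezh2 KO Th2 cells had the highest values of both (842 and 555). Gata3, the Th2 master regulator, differed by less, with 575 and 971, and did not pass over the 3 cultures (adjusted p = 0.0559). Pparg, a nuclear receptor that supports Th2 cells, read 18.5 and 307. Over the 3 cultures Il4, Il10, Csf2 and Pparg rose (limma adjusted p from 0.0143 to 0.045), and Il5 and Il13 did not pass (0.132 and 0.0859).

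The lists of other helper fates were mixed. Of 14 measured regulatory T cell genes 2 were 2-fold or more higher and 3 lower (median -0.26, but 0.13 when each gene's probe sets are averaged). Foxp3 was near the low-signal limit in wild type (69.3) and dim in Ezh2 KO cells (51.4), and Ctla4, an inhibitory receptor, went from 5217 to 2465. Entpd1 (CD39) was 5.25-fold higher, while Gpr83 was 3.71-fold lower. Among 10 follicular helper genes 0 were 2-fold or more higher and 3 lower (median -0.35), with Il6ra, the IL-6 receptor, at 568 and 165 and its signalling partner Il6st at 437 and 164. Of 5 measured Th17 genes, 1 reached 2-fold: Ahr, the aryl hydrocarbon receptor, which read 45.2 and 935 and rose over the 3 cultures (limma adjusted p = 0.0143). Il17a was dim on all 6 arrays.

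Cytolytic genes were higher in most measured members. Of 16 measured cytolytic effectors 12 were 2-fold or more higher and 0 lower (median 2.38), and 12 rose over the 3 cultures. The granzymes differed in their wild type level. Gzmb was bright in both genotypes, at 25346 and 52931, near the top of the array's range, and Gzmc read 823 and 2068. In contrast Gzmd, Gzmg and Gzmf were at the floor in wild type and at 501, 247 and 55.5 in Ezh2 KO cells, the last still dim. Perforin (Prf1), which opens the target cell membrane, read 82.2 and 453, and Fasl, a death ligand, 394 and 2644. Gzmm, by comparison, differed by -0.04. Granzyme genes from Gzmb to Gzme lie side by side and share sequence, so their probe sets may read each other in part.

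Of 18 NK receptor and adaptor genes with a probe set, 3 reached the signal limit in wild type and 9 in Ezh2 KO unpolarized cells. Over the 11 measured, 9 were 2-fold or more higher, 0 lower, and the same 9 were 2-fold or more higher in both polarized pairs. Klrd1 (CD94) read 174 and 2463, and Klrc1 (NKG2A), its partner, was at the floor in wild type and at 172 in Ezh2 KO cells. Cd160 was 10.2-fold higher, at 814 in Ezh2 KO cells. Klrk1 (NKG2D) was dim in wild type (27.2) and at 91.8 in Ezh2 KO cells. Klrg1, a receptor of late effector cells, was dim on both arrays (53.1 and 33.4). Markers that define other lineages were checked beside this. Of 7 NK and NKT cell markers with a probe set, Ncr1, Tyrobp, Klra8, Zbtb16 and Klre1 were dim on all 6 arrays, Itga2 (CD49b) read 55.2 and 75.8, and the signalling adaptor Fcer1g 2.32 and 47.0. Summed over the list, intensities were 171.6 in wild type and 263.1 in Ezh2 KO unpolarized cells. Of the CD8 genes, Cd8a read 89.1 and 78.6, and Cd8b1 300.2 and 295. All 11 measured CD4 T cell markers stayed within 2-fold, with Cd4 at 496 and 433 and Cd3e at 1485 and 1725.

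Of 17 myeloid and dendritic markers, Lyz2, Itgam, Itgax, Cd14, S100a8 and S100a9 were dim on all 6 arrays. The list's summed intensity was 4578 in wild type and 7403 in Ezh2 KO unpolarized cells. The 5 members at 2-fold or more were the class II genes H2-Aa (37.4 and 1135) and H2-Eb1 (166 and 492), the invariant chain Cd74 (87.7 and 291), and Mpeg1 and Fcgr1, which stayed dim. The class II gene H2-Ab1, brighter than these, read 1552 and 2148, a difference of 0.47. H2-Aa differed by 4.92 on the probe set used, and by 3.40 and 2.34 on its others that reached the limit. The B cell list summed to 8743 and 6028, with Cd79a and Pax5 dim on all arrays, Ighm, its brightest member, at 8363 and 5454, and Ms4a1 (CD20) at 83.7 and 210.1. Mast cell and basophil markers summed to 318.6 and 392.0, with Fcer1a, Ms4a2, Mcpt4, Mcpt8, Tpsb2 and Hdc dim on all arrays. Its other members were split. Cpa3, mast cell carboxypeptidase, was at the floor in wild type and at 92.7 in Ezh2 KO unpolarized cells (1061 in Ezh2 KO Th2 cells). Kit, the stem cell factor receptor, read 123 and 257. Gata2 went the other way, with 92.9 in wild type and 14.7, which is dim, in Ezh2 KO unpolarized cells. In the Th2 pair that list summed to 296.5 and 1333. The erythroid list had no measured member, and gamma delta T cell markers summed to 183.2 and 268.4. The part of such cells in the differences was not tested.

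**Figure D4:**
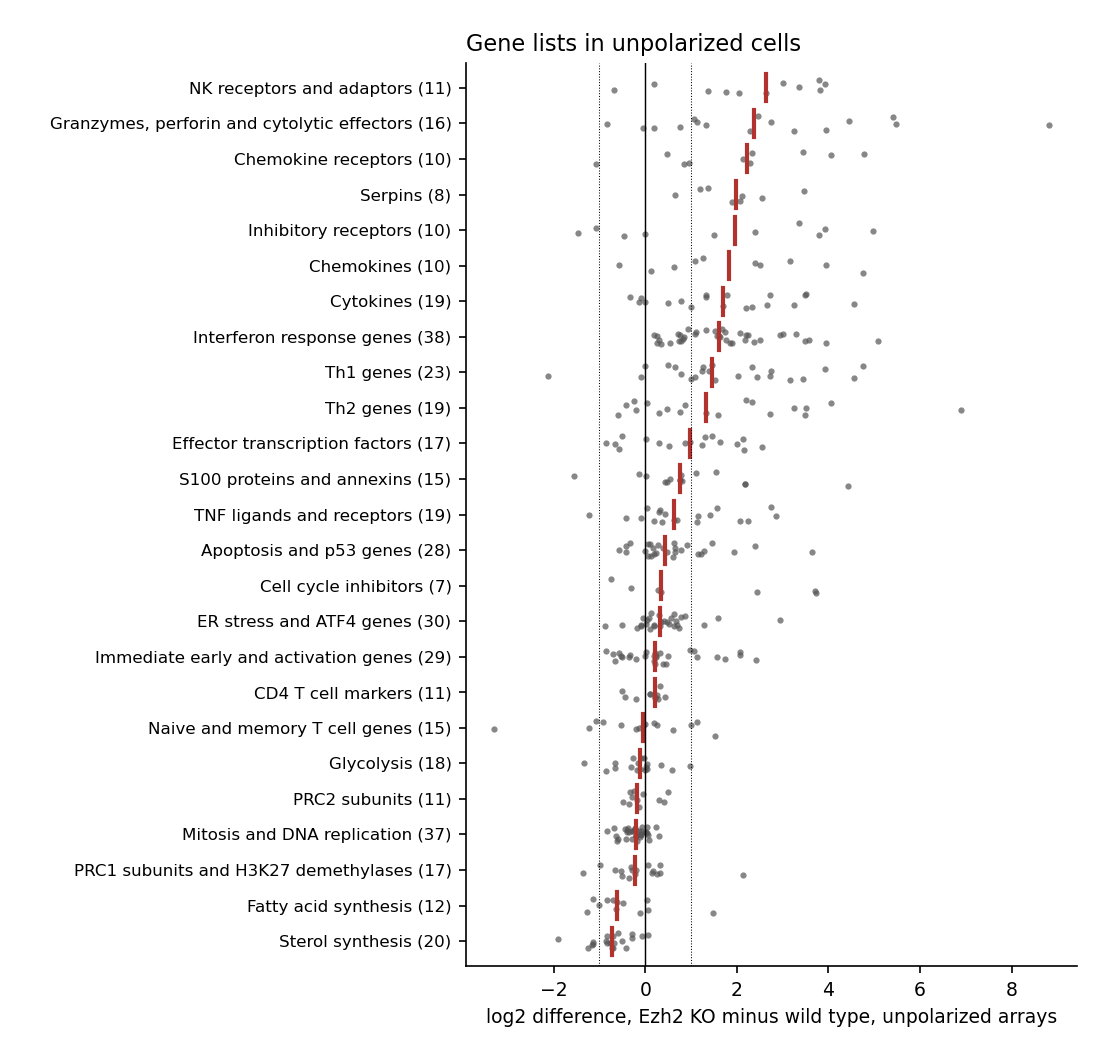
Log2 difference between the unpolarized arrays for the measured members of 25 gene lists (grey points, number of members in brackets) with each list's median (red bar); dotted lines mark 2-fold. Measured members of the NK receptor and cytolytic lists have medians of 2.65 and 2.38, partly fixed by the filter on signal, and those of sterol and fatty acid synthesis -0.72 and -0.62.

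Among genes that wild type cells also expressed, those at 2-fold or more in either direction less often had CpG-rich promoters than those under 2-fold. Promoters rich in CpG dinucleotides are known as a feature of mammalian Polycomb targets. A promoter was taken as 250 bases before to 50 after a gene's start in RefSeq (GRCm38.p6) and called CpG-rich at an observed over expected CpG ratio of 0.6 or more. Of the genes above the signal limit in wild type cells and under 2-fold, 76.3% were CpG-rich (5839 of 7655 with a promoter in the table). The share was 50.4% (178 of 353) among such genes 2-fold or more higher in Ezh2 KO cells and 19.2% (5 of 26) among those 10-fold or more higher. Among 2-fold or more lower genes it was 62.0% (119 of 192) for those above the limit in Ezh2 KO cells. For lower genes dim in Ezh2 KO but not in wild type cells it was 41.0% (103 of 251). Genes dim in wild type cells and under 2-fold were CpG-rich in 41.0%, and dim genes that were 2-fold or more higher (and bright enough in Ezh2 KO cells) in 42.1%, or 9 of 30 at 10-fold or more. These shares are descriptions without a test.

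**Figure D5:**
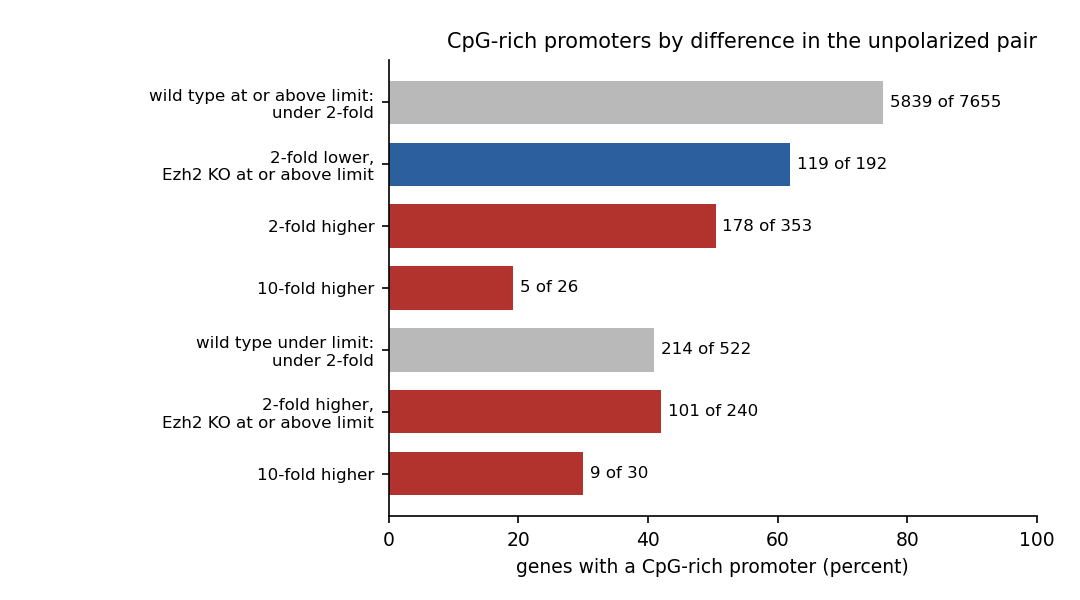
Share of genes with a CpG-rich promoter (bars, percent, from 0) by signal in wild type cells and by the difference in the unpolarized pair; numbers give CpG-rich genes of those with a promoter. Among genes at or above the limit in wild type cells the share runs from 76.3% under 2-fold to 19.2% at 10-fold or more higher. Lower genes that were dim in Ezh2 KO cells are not drawn.

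The 250 bases before the start show the range of CpG content among higher genes, with each CpG in capitals. Gzma (dim in wild type cells), Nkg7 and S100a4 stand for the CpG-poor promoters and Lgals3, Bmi1 and Id2 for those with more CpG. By the observed over expected ratio, the promoters of Bmi1 (0.708) and Id2 (0.711) were CpG-rich and that of Lgals3 (0.563) was not. The Gzma bases are chr13:113100982-113101231 (minus strand), Nkg7 chr7:43436888-43437137 (plus), S100a4 chr3:90603520-90603769 (plus), Lgals3 chr14:47373610-47373859 (plus), Bmi1 chr2:18676768-18677017 (plus) and Id2 chr12:25096093-25096342 (minus), all in GRCm38.p6 and printed 5′ to 3′ in the direction of the gene.
Gzma: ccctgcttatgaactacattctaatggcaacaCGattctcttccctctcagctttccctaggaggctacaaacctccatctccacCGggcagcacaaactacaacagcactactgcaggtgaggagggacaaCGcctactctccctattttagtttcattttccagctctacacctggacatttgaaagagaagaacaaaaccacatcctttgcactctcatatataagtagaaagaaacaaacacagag
Nkg7: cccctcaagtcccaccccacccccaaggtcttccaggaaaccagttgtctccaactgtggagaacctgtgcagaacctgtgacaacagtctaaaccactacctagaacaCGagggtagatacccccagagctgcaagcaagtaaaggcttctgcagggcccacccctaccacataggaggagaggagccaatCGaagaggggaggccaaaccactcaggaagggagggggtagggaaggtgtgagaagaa
S100a4: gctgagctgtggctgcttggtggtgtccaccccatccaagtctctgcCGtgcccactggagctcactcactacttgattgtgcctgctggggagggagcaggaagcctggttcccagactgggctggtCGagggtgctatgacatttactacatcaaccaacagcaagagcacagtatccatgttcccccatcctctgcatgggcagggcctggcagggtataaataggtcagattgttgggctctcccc
Lgals3: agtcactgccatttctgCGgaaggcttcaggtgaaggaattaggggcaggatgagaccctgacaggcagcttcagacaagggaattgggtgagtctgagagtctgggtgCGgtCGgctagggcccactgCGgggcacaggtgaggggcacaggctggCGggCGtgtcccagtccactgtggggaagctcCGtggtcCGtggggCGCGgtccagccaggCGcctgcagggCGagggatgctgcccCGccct
Bmi1: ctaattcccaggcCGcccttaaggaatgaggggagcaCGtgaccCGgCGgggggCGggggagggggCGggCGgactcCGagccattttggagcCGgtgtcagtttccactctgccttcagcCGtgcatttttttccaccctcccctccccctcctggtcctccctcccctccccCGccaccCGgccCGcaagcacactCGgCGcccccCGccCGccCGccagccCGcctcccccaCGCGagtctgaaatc
Id2: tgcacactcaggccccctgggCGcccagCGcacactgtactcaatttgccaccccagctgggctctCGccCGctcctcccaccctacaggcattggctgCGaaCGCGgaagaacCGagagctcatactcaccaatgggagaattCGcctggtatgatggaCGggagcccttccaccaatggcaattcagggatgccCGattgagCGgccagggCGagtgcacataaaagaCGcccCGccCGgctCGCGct
The Gzma stretch holds 3 CpG and those of Nkg7 and S100a4 2 each, whereas Lgals3 has 13, Bmi1 21 and Id2 18. The log2 differences were 8.81 (Gzma), 5.41 (Nkg7), 4.42 (S100a4), 5.25 (Lgals3), 2.14 (Bmi1) and 2.16 (Id2). CpG content did not order them: Cdkn2b, with 12 CpG in that window, and Cdkn2a, with 40 before 1 of its starts and 7 before the other, differed by 3.73 and 3.71.

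Bmi1, a PRC1 subunit that is known to repress the Cdkn2a locus, was the 1 member of its list at 2-fold or more higher. It read 1026 in wild type and 4531 in Ezh2 KO unpolarized cells, and its other probe set differed by 2.32 in the same direction. The wild type values in the Th1 and Th2 pairs were 1269 and 1042, and the Ezh2 KO values 5218 and 5315, so the groups did not overlap, and Bmi1 rose over the 3 cultures (2.18 ± 0.10, SE, limma adjusted p = 0.0143). Of the other 16 measured PRC1 and H3K27 demethylase genes, Phc1 was the 1 member at 2-fold or more lower (736 and 285), followed by Cbx7 (834 and 424), a chromodomain subunit that reads the mark. Cbx7 depends on the probe set, as its 2 dimmer ones differed by 0.14 each. Phc1 and Cbx7 fell over the 3 cultures (limma adjusted p = 0.0443 and 0.0299). The demethylases Kdm6a and Kdm6b differed by -0.22 and -0.36.

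The products of the Cdkn2 locus, inhibitors of the cell cycle, were higher in the same cells. Cdkn2a, which encodes p16 and p19Arf, read 27.6 in wild type and 362 in Ezh2 KO unpolarized cells, and Cdkn2b (p15) read 34.3 and 455. Cdkn2a was higher still in polarized Ezh2 KO cells, at 904 (Th1) and 934 (Th2). Cdkn1a (p21) read 1138 and 6198, and Cdkn1b (p27), at 3249.9 and 1946, went the other way. All 3 higher genes rose and Cdkn1b fell over the 3 cultures (limma adjusted p from 0.0242 to 0.0347). The 37 measured mitosis and replication genes lay within 2-fold, with a median of -0.21 and 29 lower. Of all measured genes 55.6% were lower by any amount. The lowest were Tyms (thymidylate synthase, -0.83) and the spindle checkpoint kinases Bub1b (-0.68) and Bub1 (-0.65). In this list 6 genes fell over the 3 cultures and 0 rose, where 7.98% of all measured genes fell and 8.35% rose. With each array centred on its median, differences in the pair shift up by 0.17, which is nearly the size of this list's median.

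Of 28 measured apoptosis and p53 genes 7 were 2-fold or more higher and 0 lower. They included Gadd45g, a stress-induced gene (892 and 11145), and the BH3-only genes Pmaip1 (Noxa, 326 and 1709) and Bcl2l11 (Bim, 1464 and 4003). Pro-survival Bcl2 read 16386 and 16333. These 3 and the p53 target Perp (3.84-fold higher) rose over the 3 cultures (limma adjusted p from 0.0143 to 0.0266). Among 30 genes of the ER stress and ATF4 programmes, 3 were 2-fold or more higher: the stress factor Atf3 (43.8, dim, and 338), the cationic amino acid transporter Slc7a3 and Sesn2. As 7.55% of all measured genes were 2-fold or more higher, this count does not set the list apart.

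Interferon response genes were higher throughout. All 38 measured members lay above 0, 25 were 2-fold or more higher, and the median was 1.62. Of all measured genes 44.3% lay above 0 and 7.55% were 2-fold or more higher. The median was 0.73 in the Th1 pair and 2.39 in the Th2 pair. These cultures differed both in the blocking of interferon gamma and in the added cytokine, and the part of either was not tested. In wild type cells the levels of Mx1 and Rsad2 were highest in Th1 and lowest in Th2 cultures, an order that not every member shared. Ifitm1, for example, read 532 in wild type unpolarized, 379 in wild type Th1 and 222 in wild type Th2 cells. Mx1, an antiviral GTPase, read 171 in wild type unpolarized cells, 575 in wild type Th1 cells and 101 in wild type Th2 cells, while the Ezh2 KO arrays read 1676, 2246 and 2174. Rsad2 (viperin) had the same order, with 221, 580.4 and 122 in wild type against 2466, 2944 and 2868. Over the 3 cultures 15 members rose, among them Ifitm1 and Rsad2 (limma adjusted p = 0.0177 and 0.0337). Mx2 was at the floor in wild type and at 135 in Ezh2 KO cells and did not pass (adjusted p = 0.0759). Genes for the factors that assemble on interferon response elements, Irf9 and Stat2, differed by 0.77 and 0.73.

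The interferon-stimulated response element, to which those factors bind, was searched in the 300-base promoters, on both strands, as a pair of GAAA runs with 2 bases of any kind between them. It was found in 16 of the 29 interferon genes with a promoter in the table (55.2%), against 3.71% of all measured genes. In those 16 the median difference was 1.64, and 13 were 2-fold or more higher. In the 13 without it the median was 0.85, and 5 were 2-fold or more higher, the highest of them Ifitm1. Among all measured genes, 46 of 348 with the core (13.2%) were 2-fold or more higher and 632 of 9034 without it (7.0%). The promoters of Rsad2, Ifit1 and Gbp2, which encode antiviral effectors, are shown with the core in capitals, over chr12:26456453-26456702 (minus strand), chr19:34640639-34640888 (plus) and chr3:142620413-142620662 (plus) in GRCm38.p6.
Rsad2: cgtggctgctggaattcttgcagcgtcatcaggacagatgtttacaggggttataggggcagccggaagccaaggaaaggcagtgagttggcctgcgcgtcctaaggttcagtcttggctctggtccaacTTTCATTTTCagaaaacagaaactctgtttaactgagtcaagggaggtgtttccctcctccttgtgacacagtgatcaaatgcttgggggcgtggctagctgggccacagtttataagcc
Ifit1: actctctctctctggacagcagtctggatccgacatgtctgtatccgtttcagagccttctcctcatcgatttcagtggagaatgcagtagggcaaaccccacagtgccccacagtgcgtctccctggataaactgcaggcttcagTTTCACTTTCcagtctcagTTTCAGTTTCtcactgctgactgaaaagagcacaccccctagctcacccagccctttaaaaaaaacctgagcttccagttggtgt
Gbp2: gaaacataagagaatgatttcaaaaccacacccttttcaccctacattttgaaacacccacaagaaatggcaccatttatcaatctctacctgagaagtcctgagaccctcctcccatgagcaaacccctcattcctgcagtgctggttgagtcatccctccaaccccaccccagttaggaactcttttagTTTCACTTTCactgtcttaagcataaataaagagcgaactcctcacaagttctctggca
The core starts 120 bases before the gene in Rsad2 and 59 in Gbp2, and Ifit1 has 2 copies at 104 and 85. These 3 genes went from 221 to 2466, from 118 to 909 and from 892 to 3332. A match in these letters is not evidence of binding.

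Measured cytokine genes were mostly higher. Of 24 with a probe set, 11 reached the signal limit in wild type and 16 in Ezh2 KO unpolarized cells. Of 19 measured cytokines, of which 10 are also on the helper lists, 12 were 2-fold or more higher and 0 lower, with a median of 1.71, and 8 rose over the 3 cultures. Of those on no helper list, Tgfb3, a transforming growth factor, read 21.6 and 137, Lif, a cytokine of the IL-6 family, 1402 and 4859, and Penk, the enkephalin precursor, 57.3 and 187. Cytokines that resting lymphocytes also make lay near 0, with differences of -0.13 for Tgfb1, -0.09 for Ltb and -0.01 for Il16. The receptors were split: of 22 measured interleukin and interferon receptor genes 6 were 2-fold or more higher and 3 lower. The 3 lower were Ifngr2, Il6ra and Il6st, and both chains of the type I interferon receptor lay near 0 (-0.22 for Ifnar1 and 0.03 for Ifnar2). Il2ra, the alpha chain of the receptor for the IL-2 in the medium, differed by -0.35 on its brighter probe set and 0.64 on the other, and Il2rb by 0.99.

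Chemokines and their receptors steer effector cells into tissue, and the measured ones were mostly higher. Of 14 chemokine genes with a probe set, 3 reached the signal limit in wild type and 6 in Ezh2 KO unpolarized cells. For 17 receptor genes with a probe set these counts were 7 and 10, so the shares among measured members are partly fixed by the filter. Of 10 measured chemokines 7 were 2-fold or more higher and 0 lower. Ccl5 was the brightest of them in Ezh2 KO cells, at 142 in wild type and 3862. Cxcl10, an interferon-induced ligand, was at the floor and at 175, and Ccl3 was at the floor and at 101. Of 10 measured receptors 6 were 2-fold or more higher: Cxcr6, Ccr2 (108 and 1806), Cxcr3 (219 and 2378), Cxcr4, Ccr1 and Ccr10. Ccr7, the receptor that takes naive cells to lymph nodes, was the exception, at 4193 and 1999.7, and fell over the 3 cultures (limma adjusted p = 0.0266). Cxcr3, a Th1-linked receptor that binds Cxcl10, did not pass over the 3 cultures (limma adjusted p = 0.0766). In wild type Th1 cells it read 1313.

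Genes that mark the passage from naive to effector cells differed in both directions. Cd44, an activation and memory marker, read 2295 and 6582, and Il7r, the IL-7 receptor, 1264 and 2776. Lower were Dapl1, Cd27, a costimulatory receptor (1110.4 and 474), and Ccr7. Lef1, a factor of naive cells, read 6561 and 5971. Cd44 and Il7r rose and Cd27 and Ccr7 fell over the 3 cultures (limma adjusted p from 0.02 to 0.0274). Of 17 effector transcription factors 8 were 2-fold or more higher and 0 lower. Id2, an antagonist of E proteins that supports effector cells, read 3347 and 14934, and Prdm1 (Blimp-1) 107 and 427. Zbtb32 and Batf3 were 5.86-fold and 4.39-fold higher. Id2, Prdm1 and Zbtb32 rose over the 3 cultures (limma adjusted p from 0.0143 to 0.0331), and Batf3 did not pass (0.0506).

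Of 10 inhibitory receptors 6 were higher at 2-fold or more and 2 lower. Havcr2 (TIM-3) was at the floor in wild type and at 172 in Ezh2 KO cells, whereas Pdcd1 (PD-1) read 169 and 170.0. Ctla4 and Cd200 were lower. Under a stricter filter, which asks for a high mean over the 6 arrays, the list's median turned to -0.77 from 1.95. Among 19 TNF superfamily ligands and receptors 8 were 2-fold or more higher, with Tnfrsf9 (4-1BB) at 885 and 3704 and Tnfsf4 (OX40 ligand) at 123 and 582.

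Serpins, which include inhibitors of granzymes, were higher in 7 of 8 measured members at 2-fold or more. Of 13 with a probe set, 5 reached the signal limit in wild type and 7 in Ezh2 KO unpolarized cells. Serpinb9, the inhibitor of granzyme B, read 581 and 2451, Serpinb1a 24.3 and 268, and the bright Serpinb6a 2222 and 8211. Of 15 S100 proteins and annexins 5 were 2-fold or more higher, among them bright ones. S100a4, a calcium-binding protein of motile and memory cells, read 886 and 18917, S100a6 6413 and 28947, and the annexin Anxa1 893 and 4020.1. The S100a6 difference was 2.17 in unpolarized cells, 2.15 in Th1 and 2.15 in Th2 cells. Adhesion molecules at 2-fold or more higher were Alcam, Itgb3 (integrin beta-3, 810.0 and 2974), Cd96 and Cd44.

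Lipid synthesis genes were mostly lower. Of 20 measured sterol synthesis genes 19 were lower, 5 of them at 2-fold or more, with a median of -0.72, and 13 fell over the 3 cultures. Of all measured genes 55.6% were lower, 5.8% at 2-fold or more, and 7.98% fell. Tm7sf2, a sterol reductase, read 827 and 221, Lss, which forms lanosterol, 3410.5 and 1428, and the bright Msmo1 7001 and 3148. Hmgcs1, at the entry of the pathway, read 22349 and 12622. The median was -0.86 in the Th1 and -1.13 in the Th2 pair. Of 12 fatty acid synthesis genes 3 were 2-fold or more lower (the desaturases Scd1 and Fads1, and Acly, which supplies acetyl-CoA) and 1 higher, Me1. The regulators of both pathways, Srebf2 and Srebf1, differed by -0.28 and -0.11. The sterol regulatory element, searched as TCACNCCAC on both strands, was in 1 of 16 sterol promoters (6.25%) and in 1.41% of all, which is no statement about the factor. Of 18 glycolysis genes only Aldoc, an aldolase isoform, differed by 2-fold or more (2.52-fold lower).

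Signal-induced early genes split. Of 29 measured, 7 were 2-fold or more higher, with Ier3 (525 and 2787), Fosl2 (436 and 1829) and Egr1 (670.1 and 2245). Fos and, of the Nr4a family, which reports recent receptor signalling, Nr4a1 and Nr4a3 lay below 0, at -0.70, -0.86 and -0.58. Nr4a2 depended on the probe set, with -0.51 and -0.54 on 2 of those that reached the limit and 1.86 and 1.61 on the other two. Of those named as higher, Egr1 did not pass over the 3 cultures (limma adjusted p = 0.0687).

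Developmental transcription factors, the classical Polycomb targets, were mostly dim on all arrays. Of 102 on the list 95 had a named probe set, and 18 reached the signal limit on any array. Of these 4 were 2-fold or more higher (Eomes, Hoxb4, Hoxa9 and Lhx2) and 3 lower (Gata2, Nkx2-3 and Hoxa5), with a median of -0.40. Under the stricter filter the median was 2.73, which is the value of Eomes, the list's highest member. It therefore describes Eomes and not the list. Apart from Eomes, the higher members read at most 115 in Ezh2 KO cells. Nkx2-3 differed by -2.03 in its brightest probe set, and by 0.25, with the opposite sign, when its probe sets are averaged.

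Among genes bright in wild type cells the differences can be read without the floor, and these genes were chosen after their values were seen. Of 6247 genes with a wild type intensity of 500 or more, 144 were 2-fold or more higher and 98 lower, 36 and 9 were at 4-fold, and 7 and 2 at 10-fold. The 7 were Lgals3, Ifitm1, S100a4, Gadd45g, Plac8 (1879 and 21396), Emilin2 (632 and 7066), an extracellular matrix glycoprotein, and Ctla2a (865 and 8749), a cysteine protease inhibitor of activated T cells. All but Plac8 rose over the 3 cultures (limma adjusted p = 0.0547 for Plac8, whose wild type Th1 value was 7453). The 9 lower at 4-fold were Morc1, Stxbp6, Dapl1, Ccn3, P2rx7, Cpe, Capn3, Acsl6 and Ifngr2. P2rx7, an ATP-gated channel of T cells, read 1049 and 154, and Cpe, carboxypeptidase E, 793 and 148. Ccn3, a matricellular protein, read 551 and 65.9, and Capn3, a calpain protease, 571 and 119. All but Acsl6, a fatty acyl-CoA synthetase (adjusted p = 0.0796), fell over the 3 cultures, and all 9 were lower in both polarized pairs. Also lower were Tube1, epsilon-tubulin (3390.5 and 916), and Tasp1, the protease that cleaves MLL proteins (2061 and 583).

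Genes higher in Ezh2 KO cells often lay next to one another. Of 871 placed genes at 2-fold or more higher, 278 (31.9%) had an adjacent measured gene at 2-fold or more higher, against 14.1% of all 11551 placed genes. Of the 73 genes at 10-fold or more, 33 (45.2%) had such a neighbour. For 2-fold or more lower genes the share was 13.7% against 11.2%. The runs of higher genes included 6 granzymes (Gzmb, Gzmc, Gzmf, Gzmg, Gzmd and Gzme), 5 Ifitm genes, the receptor genes Klrd1, Klrk1, Klrc1 and Klra5, the serpins Serpinb1a, Serpinb6b, Serpinb9 and Serpinb9b, Cxcr6 with Ccr1 and Ccr2, and the metallothioneins Mt1, Mt2 and Mt3. Many of these are families of related genes, and probe sets of near-identical members may share signal. Where a gene at 2-fold or more higher had at least 2 probe sets above the limit, all of them agreed in direction in 209 of 233 genes (89.7%), and for 10-fold or more in 23 of 23.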

How the data were processed

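RNA from 6 cultures (2 genotypes, 3 culture conditions, 1 array each) was measured on Affymetrix mouse arrays with 45101 probe sets, 64 of them controls. Per the labels' protocols, total RNA was extracted with Trizol and labelled with an in vitro transcription kit, and per the submitters' processing notes Affymetrix Expression Console made the values. The authors deposited linear intensities, and on every array their mean without the highest and lowest 2% was 500.0, to which the arrays had thus been scaled before they were deposited. The version and settings of Expression Console are not given in the sources used here. Such scaling fixes the mean and not the median, so small shifts between arrays remain.

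From these, values under the 20th percentile (11.33) were raised to it and log2 was taken. Gene symbols came from the platform annotation, with 34945 probe sets carrying 1 symbol, 932 several and 9160 none. Symbols for 34741 of those 34945 matched RefSeq (GRCm38.p6). A gene was represented by its probe set with the highest mean, and 11572 of 18193 genes were kept because at least 1 array reached the median intensity (64.43). Levels were compared within a probe set only. Genotype effects were fitted with limma 3.58.1 (R 4.3.3, Benjamini-Hochberg adjustment over 11572 genes) over the 3 cultures with culture as a block (2 residual degrees of freedom) and over the Th1 and Th2 arrays (1 residual degree of freedom). The fit with the interaction term also left 1 residual degree of freedom. The scripts were tested on simulated data. Other tables were made with Python 3.11.15, pandas 2.3.3 and numpy 2.4.6.

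The genes named were Ezh2, the core helper genes (Gata3, Maf, Tbx21, Eomes, Ifng, Il4, Il5, Il10 and Il13), the 15 highest and 15 lowest differences without predicted genes, clones and receptor segments, up to 4 members per list with the largest difference, and the 5 highest and 5 lowest interaction estimates. Other list members were named after their values were seen, as were the bright genes. The comparison, its 38 gene lists and its tests were chosen with earlier results of these data known. Alternatives were other scalings, floors, filters, offsets, probe set choices, variance models and pairs left out. Nothing says that the cultures came from separate animals, so the p-values reflect no more than the spread among these samples, which may be technical. The precision of single intensities is limited by the number of arrays.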

Additional observations from a re-analysis of the deposited data

Results flagged for a closer look

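Of the 10 genes with the 5 highest and 5 lowest interaction estimates, which were picked for that contrast, 8 differed by 2-fold or more in the unpolarized pair and ran opposite to both the Th1 and the Th2 difference. None passed the test of the contrast. Of all 316 genes 2-fold or more higher in the unpolarized pair and dim only in wild type there, 25 were lower in both polarized pairs. Of all 330 genes 2-fold or more lower and dim only in Ezh2 KO cells, 60 were higher in both. By any amount, 869 measured genes were higher in unpolarized Ezh2 KO cells and lower in both polarized pairs, and 705 the reverse. Higher in Ezh2 KO unpolarized cells and lower in both polarized pairs were Diras1 (2.84 log2), Sst (2.81), Usp13 (2.66) and Aif1l (1.99). Lower in unpolarized and higher in polarized cells were Sapcd1 (-2.98), Plekhh1 (-2.94), Nectin1 (-2.89) and Casp14 (-2.71). Of the other two, Dnm1 ran opposite to both with a smaller difference (0.94, against -2.84 and -3.04), and Gapdhs to 1 of them. The limma interaction term gave adjusted p-values from 0.739 to 0.913 for the 8. No value of the 8 in the unpolarized pair exceeded 109.5 (Casp14, wild type), and at least 1 value of each was dim.

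Of 10092 probe sets without a single gene symbol, which the report does not use, 4451 reached the signal limit. Among these, 13 were 10-fold or more higher in Ezh2 KO unpolarized cells, and 12 of the 13 were also 2-fold or more higher in the Th1 and Th2 pairs. In the other direction 1 was 10-fold or more lower, and it was not 2-fold lower in both polarized pairs.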

How the results depend on the processing

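The direction of strong differences held while counts moved. Genes at 2-fold or more numbered 1528 higher and 1761 lower with no filter on low values, 309 and 92 with a stricter filter (means in the top 40%), and 522 and 247 with 50 added in place of the floor. Genes that passed over the 3 cultures in limma were 0 higher and 0 lower with no filter, and 0 and 0 with any pair of arrays left out. They were 1777 and 2206 with an intensity trend in the variance. The count of lower genes alone moved to 411 with each array centred on its median, 545 with the mean of all probe sets, 1766 with the stricter filter, 1471 with the added 50 and 1571 without the culture block. In the Th1 and Th2 arrays, where 0 passed, 884 higher and 1236 lower passed with the stricter filter, 476 and 249 with the added 50, and 1361 and 1626 with the trend. Reversed were the 3-culture effects of Cbx7 (0.12) and Ighm (0.10) and the pair's difference of Nkx2-3 (0.25) with the mean of all probe sets, and the median of the inhibitory receptors (-0.77) with the stricter filter. Centring turned the small medians of the naive and memory list (0.11) and the glycolysis list (0.07) above 0. Of the unpolarized differences of named genes, 1200 recomputed values stayed within the spread of the 3 pairs, 162 moved and 1 reversed. Gzma ranged from 7.37 to 8.98, Ifng from 2.50 to 5.46 and Dapl1 from -3.30 to -3.11. Of 129 named genes at 2-fold or more, 56 passed the stricter filter on the mean.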

Other observations

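The Gimap genes, GTPases known for lymphocyte survival, lie on chromosome 6 with Ezh2, 17 to 24 measured genes from it. All 8 measured members of that stretch were higher in Ezh2 KO unpolarized cells, from 0.35 log2 in Gimap9 and 0.36 in Gimap1 to 1.26 in Gimap7. Gimap4, the brightest of them, read 14945 in wild type and 24753 in Ezh2 KO cells. All 8 were also higher in the Th1 and the Th2 pair. Of all measured genes 44.3% were higher by any amount in the unpolarized pair. Next to them lies Tmem176b, a membrane protein of myeloid and Th17 cells, at 642 and 2752. Of the measured genes beside Ezh2, Cul1 and Pdia4 differed by 0.07 and 0.30. Further out, Nobox, dim in Ezh2 KO cells, differed by -2.62, and Arhgef5 read 78.7 in wild type and 223 in Ezh2 KO cells (log2 difference 2.76 in Th1 and 3.59 in Th2 cells). The zinc finger genes between Ezh2 and the Gimap genes lay on both sides of 0, from -1.14 (Zfp777) to 0.68 (Zfp398). Of all measured genes 55.6% were lower. The polarized pairs did not repeat these extremes: Zfp777 differed by -0.22 in Th1 and 0.02 in Th2 cells, and Zfp398 by -0.21 and -0.06.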
